A study of Arabidopsis thaliana with 6 samples.

Results

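Organ boundary and zone patterning genes are 10 Arabidopsis thaliana genes that set up the base of lateral organs: BOP1, BOP2, CUC1, CUC2, CUC3, HWS, LOB, ATH1, PTL and JAG. They were taken by locus from a table of read counts for 33602 genes, and the counts of all 10 were read in each of 6 libraries. The 3 SEC libraries hold secession cells, the abscission zone cells that leave with the shed floral organs, and the 3 REC libraries hold residuum cells, which stay on the receptacle. Both groups were taken at flower stage 16 and carried 1 transgene, proQRT2::nlsGFP-GUS, whose promoter is that of the polygalacturonase gene QRT2 and whose product is a GFP held in the nucleus. Cells were protoplasted and sorted by that fluorescence, so the promoter of QRT2 set which cells the sort was aimed at. The polyA RNA was amplified as cDNA before library preparation, and the sources used here do not say that libraries came from separate plants or sorts. The p-values therefore measure the spread between these libraries, which may be technical.

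Floral organs are shed along an abscission zone that is laid down at the organ base early in flower development. BOP1 and BOP2 are co-regulators with BTB and ankyrin domains that bind no DNA themselves, work with TGA bZIP factors and CUL3 ubiquitin ligases, and are needed for abscission zones to form. ATH1 is a BELL homeodomain factor of organ bases and of the stamen abscission zone, and it pairs with KNOX homeodomain proteins. LOB and the NAC factors CUC1, CUC2 and CUC3 mark and maintain boundaries between organs, PTL restrains growth between sepals, and JAG drives growth of the organ blade. HWS is an F-box protein whose loss fuses floral organs and hinders their shedding, and it acts on the pathway of the microRNA miR164, which targets CUC1 and CUC2 but not CUC3.

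The miR164 sequences and their sites are shown because CUC1 and CUC2 share this kind of site with 4 other NAC genes, of which ORE1, NAC080 and NAC100 were called higher in SEC and NAC1 was not called, while CUC1 and CUC2 were almost without reads. Mature sequences were read from the RefSeq TAIR10.1 genome at the annotated positions chr2:19520770-19520790, chr5:287586-287606 and chr5:9852684-9852704, each on the plus strand, and bases 2 to 8 are in capitals.
miR164a: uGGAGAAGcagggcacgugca
miR164b-5p: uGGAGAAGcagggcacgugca
miR164c-5p: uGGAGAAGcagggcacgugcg
In the transcripts, the window closest to the exact complement of miR164a was found for each gene, with capitals for letters that differ from that complement (G to U pairs count as differences). Each window lies within a coding exon. The positions are chr3:5111137-5111157 on the plus strand for CUC1, chr5:21902301-21902321 on the minus strand for CUC2 and chr1:28672053-28672073 on the minus strand for CUC3. For NAC1 (AT1G56010), ORE1 (AT5G39610), NAC080 (AT5G07680) and NAC100 (AT5G61430) they are chr1:20947142-20947162 (minus), chr5:15858797-15858817 (minus), chr5:2436958-2436978 (plus) and chr5:24701687-24701707 (minus).
CUC1: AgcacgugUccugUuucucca
CUC2: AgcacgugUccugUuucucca
CUC3: CAcaUgCUAcUAgAuucucca
NAC1: AgcacguAcccugcuucucca
ORE1: CUcacgugAccugcuucuccG
NAC080: uUUacgugcccugcuucucca
NAC100: uCUacgugcccugcuucucca
CUC1 and CUC2 carry the same window with 3 differences, ORE1 has 4, and NAC1, NAC080 and NAC100 have 2 each. The best window of CUC3 has 9. Of 27440 protein-coding genes scanned, 13 have a window with at most 4 differences, which is 0.0474%.

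Total counts over genes ranged from 13222538 to 17192864 in SEC and from 13721261 to 14659524 in REC. At this depth 3 reads over a whole group correspond to 0.0818 CPM in SEC and 0.058 CPM in REC, where CPM is the read count scaled by TMM to a common library total. Markers of the zone (QRT2, IDA, HAE, HSL2 and ADPG2) were detected in both groups, though IDA had no reads in REC replicate 1. Their summed levels were 7041 to 9058 CPM in SEC and 208 to 508 CPM in REC. Reads in REC replicates 1, 2 and 3 were 387, 409 and 1354 for QRT2 and 0, 6 and 105 for IDA. For ADPG2 they were 13, 30 and 473. HAE was also highest in REC replicate 3, with 6023 reads, whereas HSL2 was lowest there, with 680. QRT2, IDA, HAE and ADPG2 were called higher in SEC, while the receptor kinase gene HSL2 was called lower, with means of 16.7 ± 4.90 CPM for SEC against 55.8 ± 13.8 CPM for REC (SD, n = 3 each; log2 -1.74 ± 0.32, SE; edgeR adjusted p = 0.00207). QRT2 itself had 1716 ± 151 CPM in SEC and 41.8 ± 32.7 CPM in REC. Libraries of 1 group correlated at 0.934 to 0.957 in SEC and at 0.886 to 0.914 in REC (log2 CPM across tested genes, which are not independent replicates), against 0.448 to 0.563 between the groups. REC replicate 3 was the closest to SEC, at 0.524 to 0.563. Of 17246 genes tested with edgeR's quasi-likelihood test, 10477 passed an adjusted p of 0.05, which is 60.8%, with 28.9% higher and 31.9% lower in SEC. Higher calls were 47.5% of all calls, and 33.7% when libraries were scaled by total counts alone. The median gene then lay at a log2 fold change of -0.61, beside -0.07 with TMM.

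Among the members, BOP2 was higher in SEC than in REC, ATH1 and PTL were lower, and HWS did not pass the test. These 4 members had enough reads to be tested. The other 6 (BOP1, CUC1, CUC2, CUC3, LOB and JAG) fell below the filter on low counts, with 1 to 63 reads over all 6 libraries. The 3 calls among 4 tested members stand beside 60.8% of all tested genes, and the number of calls is by itself no result about the members. In such sorted pools, fewer cells that express a gene and less RNA of it per cell cannot be told apart.

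**Figure D1:**
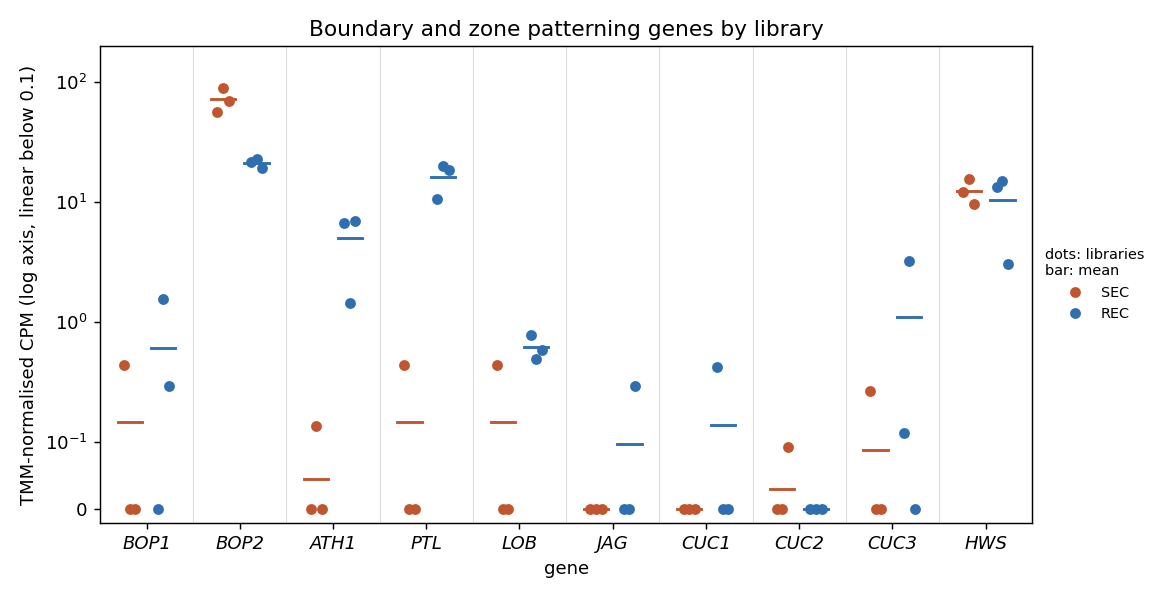
Level of each of the 10 members in every library, as TMM-normalised CPM on a log axis that is linear below 0.1, with SEC left of REC, a dot per library and a bar at the group mean. BOP2 lies above its REC values in all 3 SEC libraries, ATH1 and PTL lie below theirs, and the CUC genes, JAG and BOP1 are at or near 0 in most libraries. LOB lies at 0.497 to 0.784 CPM in REC and at 0 in SEC replicates 2 and 3.

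BOP2 (AT2G41370, chr2:17237745-17240440 on TAIR10, minus strand, 2 exons) was the most abundant member in both groups. It had 56.2, 89.2 and 69.5 CPM in SEC replicates 1, 2 and 3, against 21.3, 22.6 and 19.1 CPM in REC replicates 1, 2 and 3. All 3 SEC libraries lay above all 3 REC libraries, as was the case, in either direction, for 71.5% of tested genes. Its log2 fold change was 1.77 ± 0.25 (SE; edgeR adjusted p = 0.000501), with a 95% interval of 1.20 to 2.34. An annotated gene on the opposite strand, which is not among the counted genes, overlaps the span of BOP2 over 607 bases. The strand setting of the read counting is not given in the sources used here. Reads of the pair therefore cannot be told apart with certainty, and reads of that gene may be counted as BOP2.

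BOP1 (AT3G57130, chr3:21147558-21150027, plus strand, 2 exons), the close relative of BOP2, had almost no reads. It had 5, 0 and 0 reads in SEC replicates 1, 2 and 3 and 0, 28 and 5 reads in REC replicates 1, 2 and 3. BOP2 thus gave 99.2%, 100% and 100% of the reads of the pair in the SEC libraries and 100%, 93.6% and 98.5% in the REC libraries. The lowest share, in REC replicate 2, has an exact 95% binomial interval of 90.9% to 95.7%, which covers counting error only. The shares averaged 99.7% ± 0.453 in SEC and 97.4% ± 3.34 in REC (SD, n = 3 each), and an exact two-sided permutation test gave p = 0.4, where 3 against 3 libraries cannot go below 0.1. Per length of exon the shares were 99.7% in SEC and 97.2% in REC.

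Partners of the BOP proteins were called in both directions. Of 10 listed TGA bZIP genes, 9 could be tested, with 5 called higher in SEC, 1 called lower and 3 without a call; their median log2 value was 1.55, beside -0.07 over all genes tested. The share called, 66.7%, is near the 60.8% of all tested genes, and the 5 higher calls numbered 3 with upper-quartile or total-count scaling and without SEC replicate 1 or 2. TGA1 had 242 ± 40.1 CPM in SEC and 26.4 ± 15.3 CPM in REC (SD, n = 3 each), or log2 3.19 ± 0.44 higher (SE; edgeR adjusted p = 0.000468). TGA3 was higher by log2 2.39 ± 0.47 (SE; edgeR adjusted p = 0.00262), or by 2.98 without REC replicate 3. TGA9, known from anther development, had 32, 36 and 24 reads in the SEC libraries and 0 in each REC library, and was at least 43.2-fold higher (edgeR adjusted p = 0.00219), or at least 28.1-fold without REC replicate 2. This bound, like those below, sets the group without reads at 3 reads over the group.

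Both CUL3 genes, which encode the scaffold that BOP proteins bind as adaptors, were higher in SEC. CUL3B had 12.9 ± 1.48 CPM in SEC and 1.18 ± 0.532 CPM in REC (SD, n = 3 each), or log2 3.45 ± 0.50 higher (SE; edgeR adjusted p = 0.000612). CUL3A, named after its values were seen, was higher by log2 1.22 ± 0.31 (SE; edgeR adjusted p = 0.00931), a call lost with total-count scaling (adjusted p = 0.0884). Among BOP relatives of the NPR family, which sense salicylic acid in immunity, 33.3% of 3 tested genes were called, against 60.8% of all tested genes. The called gene was NPR3, at log2 0.95 ± 0.36 (SE; edgeR adjusted p = 0.0468). That call was lost under most alternatives, among them leaving out REC replicate 1 or any 1 SEC library (adjusted p of 0.0617 to 0.129), with an adjusted p of 0.377 when libraries were scaled by total counts alone. The letters TGACG, the core bound by TGA factors, occurred on either strand in the 250 bases before the annotated start of CUC1 alone among the 10 members, and before 18.6% of 27443 protein-coding genes.

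ATH1 (AT4G32980, chr4:15914722-15918044, minus strand, 5 or 6 exons) was nearly absent from SEC. It had 0, 2 and 0 reads in SEC replicates 1, 2 and 3, against 110, 26 and 117 reads in REC replicates 1, 2 and 3, or 0, 0.137 and 0 CPM against 6.64, 1.44 and 6.88 CPM. REC replicate 2 was the lowest of the REC libraries and still lay above every SEC library. Groups that did not overlap, in either direction, were found for 71.5% of tested genes. The ratio of REC to SEC was 89.7 (95% counting interval 24.6 to 745), and the fitted log2 fold change of SEC over REC was -6.37 ± 1.27 (SE; edgeR adjusted p = 0.00297). Without SEC replicate 2, which held both reads, ATH1 was at least 35.9-fold lower in SEC (fitted log2 -9.22), and with voom weights the log2 value was -5.14.

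The listed KNOX genes (STM, KNAT1, KNAT2 and KNAT6), whose products pair with BELL proteins such as ATH1, were also lower in SEC. The listed BELL genes went both ways. Of 16 listed KNOX and BELL genes, 11 could be tested, with 3 called higher in SEC, 5 called lower and 3 without a call, around a median log2 value of 0.23. STM, which keeps meristem cells undetermined, had 0.834 ± 1.22 CPM in SEC and 89.3 ± 25.6 CPM in REC (SD, n = 3 each), with a fitted log2 value of -6.79 ± 0.94 (SE; edgeR adjusted p = 0.000471). It was -9.13 without SEC replicate 3 and -8.31 with voom weights. KNAT1, which restrains abscission, had a log2 value of -3.92 ± 0.26 (SE; edgeR adjusted p = 1.8e-05). KNAT2 and KNAT6, which act in the same pathway and were named after their values were seen, had log2 fold changes of -3.98 ± 1.06 and -1.70 ± 0.32 (SE; edgeR adjusted p = 0.0116 and 0.00224). Of the 11 tested genes of this list, 72.7% were called in either direction, against 60.8% of all tested genes. The 4 KNOX genes, which were not a list of their own, were all called lower in SEC, as were 31.9% of all tested genes. In contrast, the BELL gene BLH3 was higher in SEC, at 51.6 ± 11.5 CPM against 9.59 ± 0.575 CPM in REC (SD, n = 3 each; log2 2.43 ± 0.27, SE; edgeR adjusted p = 0.000157). BLH7, the BELL gene besides ATH1 that was lower and also named after its values were seen, overlaps an opposite-strand gene and had 2.34 ± 1.84 CPM in SEC and 16.4 ± 5.71 CPM in REC (SD, n = 3 each; edgeR adjusted p = 0.00448). Its log2 value was -2.82, or -3.68 without SEC replicate 3.

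**Figure D2:**
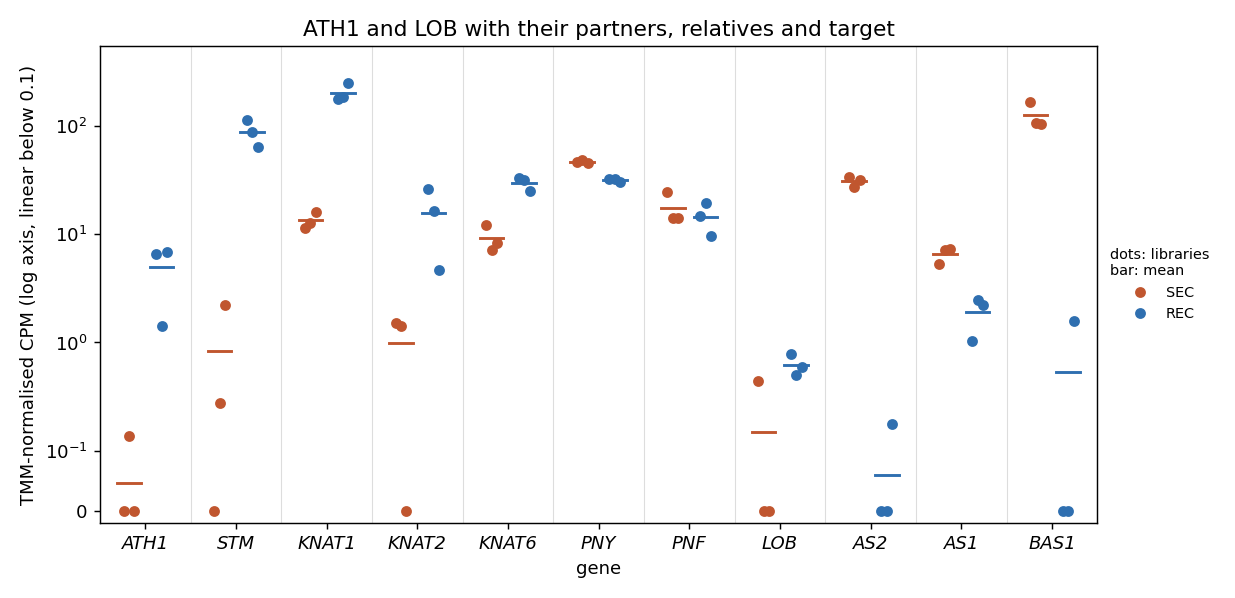
Level in every library of ATH1 with KNOX genes and the BELL genes PNY and PNF, and of LOB with AS2, AS1 and BAS1. PNY was called higher in SEC and PNF was not called. Values are TMM-normalised CPM on a log axis that is linear below 0.1. SEC lies left of REC, with a dot per library and a bar at the mean. STM, KNAT1, KNAT2 and KNAT6 lie lower in SEC together with ATH1, while AS2 and BAS1 lie higher in SEC and near 0 in REC.

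PTL (AT5G03680, chr5:957744-961032, plus strand, 2 exons) showed the same direction as ATH1 at a higher level. It had 5, 0 and 0 reads in SEC replicates 1, 2 and 3, against 176, 358 and 312 reads in REC replicates 1, 2 and 3, or 0.444, 0 and 0 CPM against 10.6, 19.8 and 18.3 CPM. No library of SEC reached any library of REC, and 71.5% of tested genes had groups that did not overlap in either direction. The log2 fold change was -6.77 ± 1.03 (SE; edgeR adjusted p = 0.00077). Without SEC replicate 1 there were no SEC reads, and PTL was at least 139-fold lower in SEC (fitted log2 -10.97); without SEC replicate 2 the value was -6.17 and with voom weights -7.77.

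Relatives of PTL in the GT-2 group of trihelix factors were split. Of 5 tested, 2 were called lower in SEC, 1 higher and 2 neither, around a median log2 value of -3.48. Calls made up 60% of these genes, near the 60.8% of all tested genes. GT-2, a DNA-binding trihelix gene that overlaps an opposite-strand gene, had 0.569 ± 0.494 CPM in SEC and 15.0 ± 5.14 CPM in REC (SD, n = 3 each; log2 -4.68 ± 0.89, SE; edgeR adjusted p = 0.00231). GTL1, a repressor of cell growth in trichomes, had a fitted log2 value of -4.80 ± 1.16 (SE; edgeR adjusted p = 0.00752), which was -3.81 without REC replicate 2 and -5.78 without SEC replicate 2. GT2L was the higher one, at log2 1.69 ± 0.38 (SE; edgeR adjusted p = 0.00513).

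LOB (AT5G63090, chr5:25308572-25310973, minus strand, 2 or 3 exons) was barely detected. It had 5, 0 and 0 reads in SEC replicates 1, 2 and 3, against 13, 9 and 10 reads in REC replicates 1, 2 and 3. Its level was 0.148 ± 0.256 CPM in SEC and 0.623 ± 0.147 CPM in REC (SD, n = 3 each), and the highest SEC library lay below the lowest REC library. An exact two-sided permutation test gave p = 0.1, the smallest value 3 against 3 libraries allow. Over all libraries, 32 reads in REC stood against 5 in SEC, and no fold change was fitted. Without SEC replicate 1, which held all SEC reads, LOB was at least 5.24-fold lower in SEC. That bound rests on leaving out the only SEC library with reads, and it exceeds the ratio of the group means above. Among genes with reads but below the filter, 6.12% had all REC libraries above all SEC libraries. That share counts this direction alone and includes genes, such as CUC2 with 1 read, that could not separate so. It therefore does not measure how rare the LOB pattern is among genes with as many reads.

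The LOB relative AS2, its partner AS1 and the LOB target BAS1 were higher in SEC. Of 4 listed genes, all tested, 3 were higher in SEC and 1 had no call, around a median log2 value of 4.84, where 28.9% of all tested genes were higher. Counted in either direction, 75% of these 4 genes were called, against 60.8% of all genes tested. The gene without a call was BHLH48, a partner of LOB, with 5.12 ± 1.17 CPM in SEC and 10.2 ± 2.42 CPM in REC (SD, n = 3 each; edgeR adjusted p = 0.0646). Its groups did not overlap, as was the case, in either direction, for 71.5% of tested genes. BHLH48 was called lower with upper-quartile or total-count scaling (edgeR adjusted p = 0.0301 and 0.0115). The same held with DESeq2 (adjusted p = 0.0459), voom weights (adjusted p = 0.0136) and at least 10 CPM in 3 libraries (edgeR adjusted p = 0.026). It was not called with any single library left out (edgeR adjusted p of 0.0688 to 0.201). AS2, a LOB-domain gene that with AS1 keeps KNOX genes off in leaves, had 33.7, 27.5 and 32.0 CPM in SEC replicates 1, 2 and 3, against 0, 0 and 0.176 CPM in REC replicates 1, 2 and 3. Its 1127 SEC reads against 3 REC reads give a ratio of 530 (95% counting interval 181 to 2572), with an edgeR adjusted p of 5.15e-05, and without REC replicate 3, which held the 3 reads, AS2 was at least 355-fold higher in SEC. AS1 had 5.33, 7.18 and 7.34 CPM in SEC replicates 1, 2 and 3, against 1.03, 2.48 and 2.23 CPM in REC replicates 1, 2 and 3 (log2 1.78 ± 0.57, SE; edgeR adjusted p = 0.0252). It overlaps an opposite-strand gene, and its call was lost with total-count scaling (adjusted p = 0.1) and without REC replicate 1, SEC replicate 2 or SEC replicate 3 (adjusted p = 0.0526, 0.0955 and 0.0711).

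BAS1, which encodes a brassinosteroid-inactivating P450 and is a direct target that LOB activates, had 168, 107 and 104 CPM in SEC replicates 1, 2 and 3, against 0, 0 and 1.59 CPM in REC replicates 1, 2 and 3. The log2 fold change was 7.89 ± 1.11 (SE; edgeR adjusted p = 0.000503). Without REC replicate 3, the only REC library with reads, BAS1 was at least 1446-fold higher in SEC (fitted log2 13.82); without REC replicate 2 the value was 7.29 and with voom weights 10.98. BAS1 was abundant in SEC, the group in which LOB, below the filter on low counts, had reads in only 1 library. A link between their levels was not tested. The letters GCGGCG, a motif bound by LOB-domain proteins, occurred on either strand in the 250 bases before the start of none of BAS1, AS2 and the 10 members, and before 1.56% of protein-coding genes.

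The CUC genes were close to undetected. CUC1 (AT3G15170, chr3:5109883-5111447, plus strand, 3 exons) had 0 reads in every SEC library and 7, 0 and 0 reads in REC replicates 1, 2 and 3. CUC2 (AT5G53950, chr5:21901966-21903823, minus strand, 3 exons) had 1 read, in SEC replicate 3, and 0 in REC. CUC3 (AT1G76420, chr1:28672029-28673934, minus strand, 3 exons) had 3, 0 and 0 reads in SEC replicates 1, 2 and 3, against 2, 58 and 0 reads in REC replicates 1, 2 and 3. A single library thus held nearly all CUC3 reads: the ratio of REC to SEC was 14.2 (95% counting interval 4.63 to 70.7) with REC replicate 2, and 2 reads in REC stood against 3 in SEC without it.

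REC replicate 2 also held most reads of BOP1, and most reads of phloem markers and of CLV3. Phloem markers (SUC2, APL and SEOR1) summed to 0 to 1.30 CPM in SEC, and to 12.6 CPM in REC replicate 2 against 0.882 and 0.965 CPM in the other REC libraries; SEOR1 was at 0 throughout. The meristem gene CLV3 had 14 reads, all in REC replicate 2, and WUS had none in any library. Mesophyll markers summed to 0.976 to 3.49 CPM in SEC and 660 to 1386 CPM in REC, with the highest sum in REC replicate 2. The part of such cells in the CUC3 and BOP1 reads was not tested. Of 4 nectary markers, CRC, SWEET9 and CWINV4 were at 0 in all 6 libraries and JMT had 5 reads, all in SEC replicate 3. Epidermis markers, 4 in all, summed to 0 to 3.82 CPM in SEC and 66.5 to 101 CPM in REC, and 3 of the 4 were lower in SEC; the part of the epidermis and mesophyll differences in the lower ATH1 and PTL levels was not tested.

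Outside the CUC group, ORE1, NAC080 and NAC100, which carry a miR164 site, were higher in SEC. Of 4 such genes tested, 3 were higher and 1 was not called, where 28.9% of all tested genes were higher, and their median was log2 7.54, or 5.61 with NAC080 and NAC100 at their bounds. Calls in either direction made up 75% of these 4 genes, against 60.8% of all genes tested. ORE1, a regulator of leaf senescence, had 468, 653 and 459 CPM in SEC replicates 1, 2 and 3, against 0.845, 1.05 and 11.6 CPM in REC replicates 1, 2 and 3. Its log2 fold change was 6.87 ± 1.05 (SE; edgeR adjusted p = 0.000757), or 9.11 without REC replicate 3 and 8.52 with voom weights. NAC080 and NAC100 had 91 and 118 reads over SEC and 0 over REC, and were at least 42.8-fold and 55.5-fold higher (edgeR adjusted p = 0.00267 and 0.00287), or at least 27.8-fold and 36.0-fold without REC replicate 2. NAC1, which acts in lateral root development and overlaps an opposite-strand gene, had 6.89 ± 1.95 CPM in SEC and 4.28 ± 1.23 CPM in REC (SD, n = 3 each; edgeR adjusted p = 0.244). Reads on the miR164 precursor genes were 7 in all, on MIR164B in REC replicate 2. Libraries of polyA RNA do not measure the mature microRNA.

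**Figure D3:**
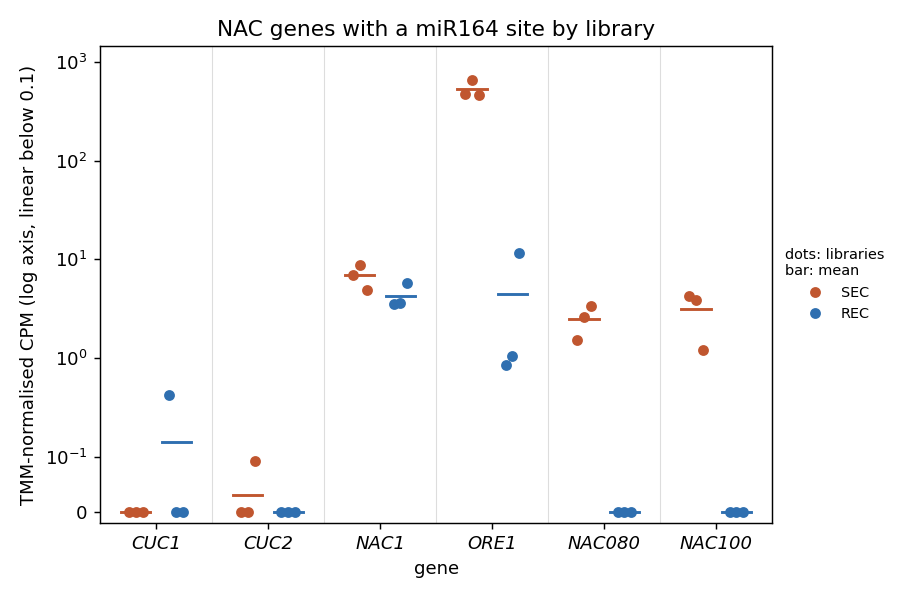
Level in every library of the NAC genes that carry a miR164 site, as TMM-normalised CPM on a log axis that is linear below 0.1, with SEC left of REC, a dot per library and a bar at the mean. ORE1, NAC080 and NAC100 lie higher in all 3 SEC libraries than in any REC library, NAC1 overlaps between the groups, and CUC1 and CUC2 are at 0 in most libraries.

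Known repressors of CUC genes were called in both directions. Of 6 tested TCP and NGATHA-like genes, 2 were called higher in SEC, 1 lower and 3 neither, around a median log2 value of 1.28. Calls thus covered 50% of them, against 60.8% of all tested genes. NGAL2, a B3-domain repressor of organ growth, had 361 ± 68.4 CPM in SEC and 59.8 ± 17.3 CPM in REC (SD, n = 3 each; log2 2.59 ± 0.29, SE; edgeR adjusted p = 0.000157). Its relative NGAL3 had 0 reads in SEC and 14, 86 and 21 reads in REC replicates 1, 2 and 3, and was at least 28.6-fold lower in SEC (edgeR adjusted p = 0.00739), or at least 12.7-fold without REC replicate 2. TCP10, a leaf-maturation factor, had 127 reads over SEC and 0 over REC, and was at least 59.7-fold higher (edgeR adjusted p = 0.00185), or at least 38.8-fold without REC replicate 2. Neither BRM nor SYD, chromatin-remodelling ATPases that act on CUC genes, was called (edgeR adjusted p = 0.725 and 0.0758).

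Other boundary factors were called in both directions, and several had no reads. Of 14 listed, 9 could be tested, with 2 called higher in SEC, 1 called lower and 6 without a call, around a median log2 value of 0.68. The called genes were 33.3% of those tested, against 60.8% of all tested genes. LOF1, a MYB gene that separates branches from their subtending leaves, had 53.8, 57.0 and 28.8 CPM in SEC replicates 1, 2 and 3, against 0, 0.883 and 0.882 CPM in REC replicates 1, 2 and 3 (log2 6.27 ± 0.85, SE; edgeR adjusted p = 0.000413), and the log2 value was 7.44 with voom weights. RAX3, a MYB gene of axillary meristems, was higher at 3.76 ± 1.97 CPM in SEC against 0.166 ± 0.287 CPM in REC (SD, n = 3 each; edgeR adjusted p = 0.0273). That call was lost without REC replicate 1 or any 1 of the SEC libraries (adjusted p of 0.0503 to 0.103), and without REC replicate 2, which held all REC reads, RAX3 was at least 41.2-fold higher. PUCHI, an ERF gene of early floral meristems, had 6.38 ± 3.17 CPM in SEC and 15.7 ± 4.83 CPM in REC (SD, n = 3 each; edgeR adjusted p = 0.0498). Its call was lost without REC replicate 2 or 3 or SEC replicate 1 or 3 (adjusted p of 0.0926 to 0.129). The same held with no filter on low counts (edgeR adjusted p = 0.0562). LAS, HAN, SUP, RBE and UFO, which act in young meristems and flowers, had 0 reads in all 6 libraries.

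HWS (AT3G61590, chr3:22791962-22794341, plus strand, 2 or 3 exons) was expressed in both groups without a difference that passed the test. It had 12.2, 15.4 and 9.57 CPM in SEC replicates 1, 2 and 3, against 13.3, 14.8 and 3.06 CPM in REC replicates 1, 2 and 3. The groups overlapped, and REC replicate 3 was the lowest library. The log2 fold change was 0.26 ± 0.57 (SE; edgeR adjusted p = 0.714) with a 95% interval of -1.05 to 1.56, which holds 0. The estimate was -0.17 without REC replicate 3 and -0.30 with total-count scaling.

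Subunits of the cullin ligase that HWS joins as an F-box protein moved in different directions. CUL1, the scaffold, had 758 ± 57.8 CPM in SEC and 365 ± 88.0 CPM in REC (SD, n = 3 each; log2 1.05 ± 0.23, SE; edgeR adjusted p = 0.00426), a call that was lost with total-count scaling (adjusted p = 0.0692). ASK2, a SKP1-like linker gene that overlaps an opposite-strand gene, had 13.9 ± 3.14 CPM in SEC and 78.9 ± 11.3 CPM in REC (log2 -2.50 ± 0.26, SE; edgeR adjusted p = 0.000124). Across the 6 cullin-ligase genes listed for BOP and HWS, 3 were called higher in SEC and 2 lower, around a median log2 value of 0.33. Together these calls were 83.3% of the list, against 60.8% of all tested genes. The lower genes were ASK2 and RBX1, the RING subunit of both kinds of ligase, which was named after its values were seen (log2 -0.74 ± 0.27, SE; edgeR adjusted p = 0.0418). The RBX1 call was lost without REC replicate 1 or 2 or SEC replicate 1 or 3 (adjusted p of 0.0937 to 0.118). The same held with no filter on low counts (edgeR adjusted p = 0.0537).

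JAG (AT1G68480, chr1:25684314-25686165, minus strand, 2 to 5 exons) had 5 reads, all in REC replicate 3, and 0 in SEC, and its relative NUB had 10 reads, all in REC replicate 2. The cell-cycle inhibitor genes that JAG represses differed in direction. KRP2 had 2.44 ± 1.25 CPM in SEC and 11.3 ± 3.95 CPM in REC (SD, n = 3 each; log2 -2.20 ± 0.58, SE; edgeR adjusted p = 0.011). KRP4, which overlaps an opposite-strand gene, was called higher in SEC (log2 1.04 ± 0.39, SE; edgeR adjusted p = 0.0479) although its libraries overlapped, and the call was lost under most alternatives, with an adjusted p of 0.304 under total-count scaling.

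**Figure D4:**
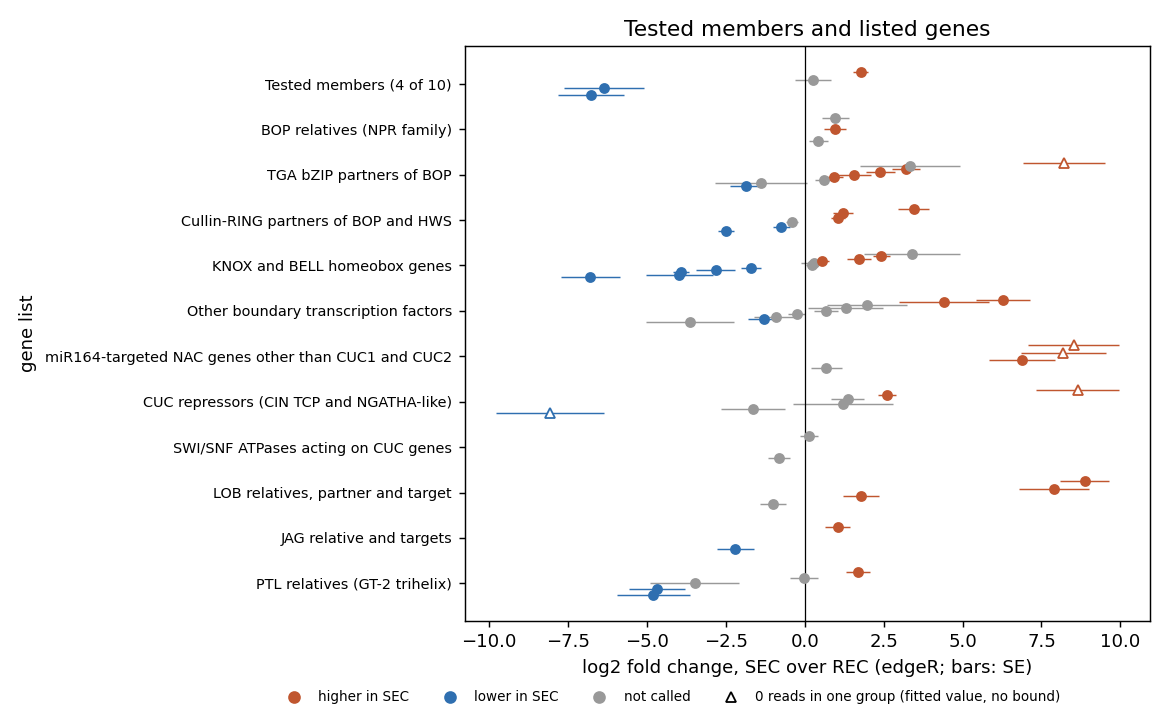
Fitted log2 fold change of SEC over REC with its SE for the 4 tested members and for the tested genes of the 11 lists that had any, coloured by call. ATH1 and PTL lie far left of 0 and BOP2 right of it; open triangles are genes with 0 reads in 1 group, whose fitted value is no bound.

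Over the 12 lists of partners, regulators and targets, 24 of 61 tested genes were called higher in SEC, 13 lower and 24 neither. The share called was 60.7%, against 60.8% of all genes tested. The balance turned with the scaling: 16 were higher and 19 lower with total counts alone, and 19 were higher and 18 lower with upper quartiles.

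Levels were compared between members per length, as TPM computed from the exon lengths of the annotation. In SEC, BOP2 had 48.1 ± 12.1 TPM and HWS 6.74 ± 1.66 TPM (SD, n = 3), with every library of BOP2 above every library of HWS, and the other 8 members averaged at most 0.166 TPM. In REC the order was BOP2 at 18.0 ± 1.82, PTL at 13.1 ± 4.23, HWS at 7.22 ± 4.49, ATH1 at 3.55 ± 2.16, CUC3 at 1.47 ± 2.41 and LOB at 0.913 ± 0.192 TPM (SD, n = 3). Each neighbouring pair in that REC order overlapped between libraries. BOP2 and PTL overlapped narrowly, since the lowest BOP2 library had 16.26 TPM and the highest PTL library 16.33 TPM.

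For each called member, the tested gene with the most similar profile over the 6 libraries was found by the Euclidean distance between log2 CPM values centred on each gene's mean. For BOP2 it was AGP16 (AT2G46330), an arabinogalactan peptide gene, at a distance of 0.278, where the median gene lay at 3.11. For ATH1 it was AT4G02110, which encodes a BRCT-domain protein, at 0.839 against a median of 6.11. For PTL it was AT3G12930, which encodes a chloroplastic Iojap protein, at 0.899 against a median of 7.86.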

How the data were processed

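The data are read counts per gene in 3 SEC and 3 REC libraries of sorted Arabidopsis protoplasts. The authors deposited raw counts, without scaling. HTSeq 0.6.1 and TopHat2 2.0.9 are named, with the build TAIR10, in the submitters' processing notes, which also list Trimmomatic 0.32.3 and Picard 1.119. For the annotation release, the strand setting and the treatment of duplicates, the answer is not given in the sources used here. Reads at more than 1 site (6.86% to 11.8% of records) were set aside by the counter, so levels of close relatives such as BOP1 and BOP2 or CUC1 and CUC2 are uncertain. The 5 summary rows of the counter were left out of library sizes; 42.8% to 45.9% of records fell on no feature.

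Genes were filtered by filterByExpr with the group, scaled by TMM and tested in edgeR 4.0.16 (R 4.3.3) by its quasi-likelihood test, and p was adjusted by Benjamini-Hochberg over 17246 genes and a threshold of 0.05. The SE is the log2 fold change divided by the square root of F. CPM means are of 3 libraries. Groups with 0 reads give bounds against 3 reads over the group; groups with 1 to 3 reads give ratios with exact 95% counting intervals. Intervals and floors cover counting error only. Limma 3.58.1 (voom) and DESeq2 1.42.0 were alternatives. Permutation tests used scipy 1.17.1. The table's gene starts count from 0 (14406 equal RefSeq TAIR10.1 starts when read so, 134 otherwise) and are written here from 1; sequences, exons and overlaps are from RefSeq TAIR10.1.

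The members and the 12 lists were chosen with earlier results of these data known. The named genes are the members, up to 3 genes of each list with the smallest adjusted p under 0.05, and the gene with the nearest profile to each called member. CUL3A, RBX1, KNAT2, KNAT6, BLH7, BHLH48, NAC1, BRM, SYD, NUB, the miR164 precursors, the boundary genes without reads and the cell markers fall outside this rule and were named after their values were seen.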

Additional observations from a re-analysis of the deposited data

How the results depend on the processing

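The calls of the members, 1 higher in SEC and 2 lower, were the same with RLE, upper-quartile or total-count scaling, DESeq2, voom with quality weights, no filter, organelle genes left out, a threshold of 0.01 and without any single library. With at least 10 CPM in 3 libraries ATH1 could not be tested and 1 member was lower; with genes over an opposite-strand gene left out (chosen after seeing the data) BOP2 was not tested and 0 were higher. The HWS estimate was -0.30 with total-count scaling and ranged from -0.17 (without REC replicate 3) to 0.61 (without REC replicate 2) as libraries were left out; the cause was not tested. Listed genes called higher numbered 13 with the 10 CPM filter, against 24, since fewer genes were tested, and those called lower numbered 8 at an adjusted p of 0.01, against 13. Leaving out 1 library gave 17 to 24 higher and 10 to 14 lower listed genes. With upper-quartile scaling the median gene lay at log2 -0.31, and higher calls were 41.5% of all. Same-numbered libraries had correlations of deviations of -0.0218, -0.0101 and -0.016, against -0.0288 to 0.0397 for the other pairs. Replicate numbers thus showed no shared variation, but this cannot tell whether same-numbered libraries were collected together. With a replicate block 4644 genes were higher and 4871 lower, and the members' calls stayed at 1 higher and 2 lower. The calls of AS1, NPR3 and KRP4 were lost with that block (edgeR adjusted p = 0.0544, 0.0561 and 0.0593). The BOP2 share difference ranged from 0.496 to 3.69 percentage points as libraries were left out. The share of each CUC gene in their sum could not be tested, since SEC replicate 2 and REC replicate 3 had 0 CUC reads. With no filter on low counts, none of the 6 members with few reads was called.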
